A study of Homo sapiens with 24 samples.

Results

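Irradiation of Cal33 cells in the presence of GSK-J1 was followed in 6 of the 24 RNA-seq libraries of the study, chosen by their labels alone. Of these, 3 came from cells given 4.5 µM GSK-J1 with a single 4 Gy dose of X-rays and 3 from cells given 4.5 µM GSK-J1 alone, all wild type by label and all with RNA taken after 24 h. Cal33 is an established head and neck squamous cell carcinoma (HNSCC) line from the tongue, and GSK-J1 is a small-molecule inhibitor of UTX (KDM6A) and JMJD3 (KDM6B), the demethylases that take methyl groups off lysine 27 of histone H3, a mark of silent chromatin that Polycomb complexes write. The inhibitor was thus present in both groups, and the comparison asks which genes responded to irradiation under it. Of 6 further Cal33 libraries, 3 received 4 Gy and 3 were sham-treated, all without GSK-J1. The tongue HNSCC line SAS gave 3 libraries with GSK-J1 and 4 Gy and 3 with GSK-J1 alone, at the same dose, concentration and time. The labels do not state the interval between adding the inhibitor and irradiation, and neither they nor the methods say that replicates were separate cultures, so p-values measure the spread between these samples only.

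Ionizing radiation breaks both strands of DNA. Cells respond within minutes with checkpoint kinases, and later with changes in transcription. Over the following day NF-κB drives cytokine and survival genes, and DNA that leaks from damaged nuclei or micronuclei is sensed in the cytosol by cGAS and STING, which switch on interferons. Interferons are secreted, bind receptors and activate interferon-stimulated genes whose promoters carry the interferon-stimulated response element (ISRE).

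The 6 libraries held between 70083849 and 96848227 counts on the strand of the gene. Levels are given as CPM, the count of a gene scaled to the size of its library after TMM normalization over these 6. Standard errors of log2 fold changes are given as SE. The epithelial and squamous markers that define the label were present: KRT5 had 3633, 4353 and 5096 CPM with 4 Gy, against 4417, 6346 and 4599 CPM under GSK-J1 alone, the squamous factor TP63 had 354, 312 and 286 CPM with 4 Gy, against 362, 439 and 306 CPM under GSK-J1 alone, and the epithelial cadherin CDH1 had 203, 197 and 207 CPM with 4 Gy, against 179, 181 and 191 CPM under GSK-J1 alone. Of 24 markers of blood, stroma, endothelium, melanocytes and other cells, 4 to 6 had no count in a library, and the sum of all 24 was 62.3 to 80.7 CPM with 4 Gy and 65.6 to 95.1 CPM without, with most counts from CDH5 and COL1A1 and none from MS4A1, COL1A2 or MLANA. Genes that SAS but not Cal33 transcribes reached at most 0.0182% of their SAS level in any of the 6. Mitochondrial genes took 8.35, 6.23 and 5.43% of the counts with 4 Gy, against 9.31, 10.0 and 9.52% under GSK-J1 alone, so the groups did not overlap (exact permutation test over 6 libraries, two-sided, p = 0.1, the smallest that 3 against 3 allows).

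Irradiation under GSK-J1 changed 4494 of 24437 genes tested, of which 2449 were higher (10.0% of all genes tested) and 2045 were lower (8.37%), by edgeR's quasi-likelihood test at a Benjamini-Hochberg adjusted p under 0.05, with the replicate number as a block. A change of at least 2-fold was seen in 1061 of the genes that were higher and 520 of those that were lower. In 4357 of the 4494 all 3 replicate pairs moved the same way. The libraries of the groups did not overlap in 6370 genes, 26.1% of all tested, 3256 of them higher and 3114 lower with 4 Gy. The median log2 fold change of all genes was 0.02. Without the block 895 genes were called, 583 higher and 312 lower, all 895 of them among the 4494. With pair 1 left out 1572 were higher and 1634 lower, with pair 2 left out 2660 and 2310. With pair 3 left out they were 1371 and 1154, 2525 in all. The calls therefore rest on changes that recurred within pairs, while levels differed between pairs. Counts of list members in these fits, given below, are to be read beside these totals and not beside 10.0% and 8.37%.

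**Figure D1:**
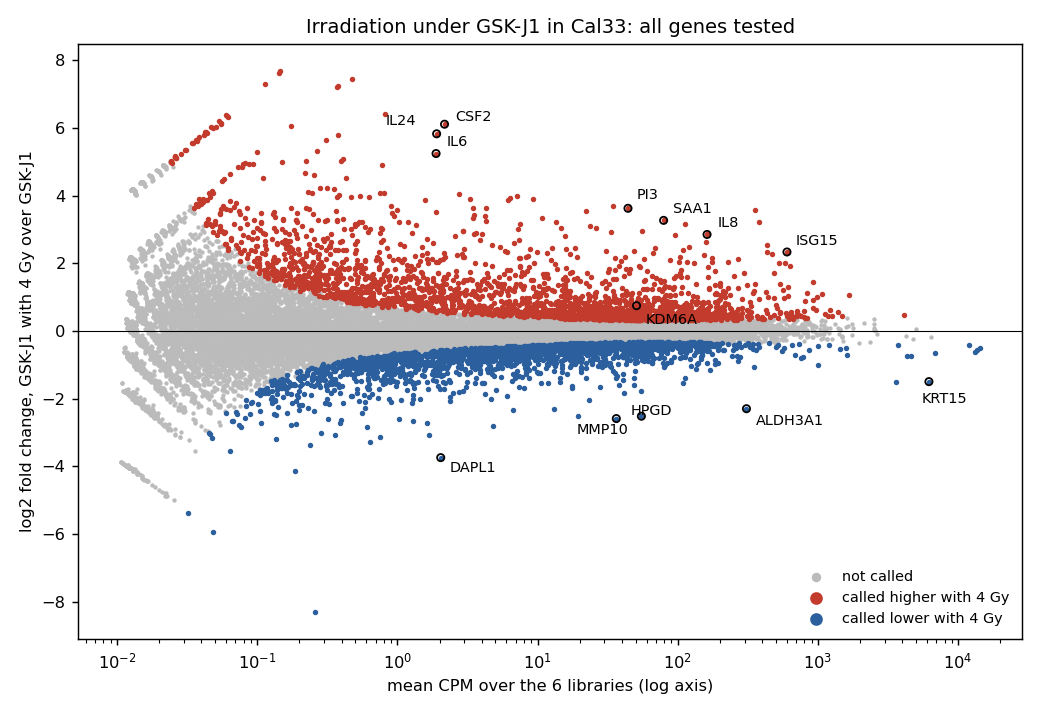
Each point is one of the 24437 genes tested, placed by its mean CPM over the 6 libraries (log axis) and its log2 fold change, GSK-J1 with 4 Gy over GSK-J1 alone. The 2449 genes called higher are red and the 2045 called lower are blue, and the largest rises, such as CSF2, IL24 and IL6, lie at low CPM, while KRT15 is among the most abundant genes that fell.

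The promoters of 4 genes named below, each of which holds a match, are shown first. The ISRE and the NF-κB element are the sites through which interferon and NF-κB are known to act on such genes. The sequences are from RefSeq on GRCh38.p14, 250 bases before to 50 bases after the gene start, 5′ to 3′ on the strand of the gene (the plus strand in all 4). Capitals mark matches, on either strand, to the ISRE, searched as GAAA, any 2 bases and GAAA, in ISG15 (chr1:1013247-1013546, where 2 matches overlap) and IFIT3 (chr10:89327747-89328046) and to the NF-κB consensus in BIRC3 (chr11:102317234-102317533) and CCL20 (chr2:227813592-227813891).
ISG15: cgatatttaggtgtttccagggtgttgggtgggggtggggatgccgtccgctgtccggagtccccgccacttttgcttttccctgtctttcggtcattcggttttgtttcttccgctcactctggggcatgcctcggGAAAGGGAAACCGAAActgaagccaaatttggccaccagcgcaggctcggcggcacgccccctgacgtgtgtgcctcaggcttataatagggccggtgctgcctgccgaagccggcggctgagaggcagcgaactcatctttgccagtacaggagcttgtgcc
IFIT3: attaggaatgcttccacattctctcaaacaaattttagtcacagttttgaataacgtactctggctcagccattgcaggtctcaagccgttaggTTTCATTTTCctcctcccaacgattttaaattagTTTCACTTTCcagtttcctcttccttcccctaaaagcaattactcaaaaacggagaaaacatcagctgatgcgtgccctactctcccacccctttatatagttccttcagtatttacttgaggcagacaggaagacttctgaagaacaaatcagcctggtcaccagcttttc
BIRC3: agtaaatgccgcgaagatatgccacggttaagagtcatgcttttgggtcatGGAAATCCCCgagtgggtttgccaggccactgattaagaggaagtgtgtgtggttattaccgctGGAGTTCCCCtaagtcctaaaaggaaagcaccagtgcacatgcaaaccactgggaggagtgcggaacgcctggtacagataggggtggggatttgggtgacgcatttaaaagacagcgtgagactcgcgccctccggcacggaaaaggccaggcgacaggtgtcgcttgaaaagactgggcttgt
CCL20: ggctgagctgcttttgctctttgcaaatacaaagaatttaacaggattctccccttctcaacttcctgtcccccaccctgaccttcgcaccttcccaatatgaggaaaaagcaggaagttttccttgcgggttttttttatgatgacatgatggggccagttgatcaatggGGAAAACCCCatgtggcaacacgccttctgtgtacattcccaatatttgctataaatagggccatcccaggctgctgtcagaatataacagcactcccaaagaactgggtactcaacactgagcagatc

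Of the 40 interferon-stimulated genes listed, 32 matched a RefSeq promoter, and 20 of these held the ISRE (62.5%), against 3.65% of the promoters of all 27305 genes. Of the 27 genes listed for NF-κB and inflammatory cytokines, 23 matched, 13 held the NF-κB consensus (56.5%, against 10.8% of all) and 0 held the ISRE. The AP-1 element TGANTCA was found in 3 promoters of each list, 9.38% of the interferon and 13.0% of the cytokine promoters, against 7.76% of all. These shares are over all listed members with a promoter, called or not. They describe the lists and are no result of irradiation. Several genes described below held no match in this window: RSAD2, CMPK2 and DDX58 no ISRE, and IL1A, IL8 and CSF2 no NF-κB consensus. A match is a run of letters in this window and not evidence of binding.

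Of the 28 lists, the interferon-stimulated genes had the largest share of members higher. All 40 were tested, 39 rose, where 10.0% of all genes tested did, and 0 fell, with a median log2 fold change of 1.72 against 0.02 for all genes, and 35 rose in the test without the block. In 39 of the 40 all irradiated libraries stood above all libraries of GSK-J1 alone, where the groups were apart in either direction in 26.1% of all genes. The exception was IFITM2, a membrane protein that blocks virus entry, at 18.2, 7.07 and 9.31 CPM with 4 Gy, against 16.9, 9.84 and 5.68 CPM under GSK-J1 alone (log2 fold change 0.11, SE 0.17, adjusted p = 0.706). ISG15, a ubiquitin-like modifier (chromosome 1, 948803 to 949920 on hs37d5), had 925, 494 and 1647 CPM under GSK-J1 with 4 Gy, against 173, 169 and 202 CPM under GSK-J1 alone. Every irradiated library was above every other, by 5.04-fold in the fit (log2 fold change 2.33, SE 0.17, adjusted p = 1.47e-11). RSAD2, which encodes viperin, an inhibitor of virus budding, had 242, 172 and 359 CPM with 4 Gy, against 47.4, 54 and 55.8 CPM under GSK-J1 alone (log2 fold change 2.24, SE 0.15, adjusted p = 6.04e-13). Among the cytosolic RNA sensors, DDX58 (RIG-I) had 187, 154 and 286 CPM with 4 Gy, against 43, 52.7 and 55.6 CPM under GSK-J1 alone (log2 fold change 2.01, SE 0.13, adjusted p = 1.14e-12).

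The IFIT proteins, which bind viral RNA, moved alike. IFIT3 (chromosome 10, 91087651 to 91100728) had 606, 636 and 1311 CPM with 4 Gy, against 153, 198 and 261 CPM under GSK-J1 alone (log2 fold change 2.00, SE 0.13, adjusted p = 1.22e-12). IFIT2 had 637, 436 and 1287 CPM with 4 Gy, against 109, 144 and 204 CPM under GSK-J1 alone (log2 fold change 2.27, SE 0.16, adjusted p = 2.07e-12), and IFIT1 rose by 2.03 on the log2 scale (SE 0.15). In all 3 genes pair 3 held the highest irradiated level and the groups were apart. IFI6, an inhibitor of apoptosis and of virus replication, had 399, 610.5 and 1031 CPM with 4 Gy, against 31.8, 166 and 59.7 CPM under GSK-J1 alone (log2 fold change 3.23, SE 0.24, adjusted p = 9.37e-12). GSK-J1 replicate 2 was the highest of the unirradiated libraries in IFI6, and the ratio within pair 2 was the smallest. CMPK2, a mitochondrial nucleotide kinase that lies beside RSAD2, had 52.6, 38 and 86.9 CPM with 4 Gy, against 12.3, 13.6 and 12.1 CPM under GSK-J1 alone (log2 fold change 2.14, SE 0.16, adjusted p = 1.95e-11).

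The interferons themselves were scarce but rose, as did the chemokines they induce; the genes of this paragraph were on no list and were chosen after their values were seen. IFNL1, a type III interferon of epithelia, had 8.1, 2.14 and 5.54 CPM with 4 Gy, against 0.929, 0.378 and 0.647 CPM under GSK-J1 alone (log2 fold change 2.95, SE 0.21, adjusted p = 5.23e-12). IFNL2 and IFNL3, near-identical neighbours between which reads may be split, rose by 3.47 and 4.08 on the log2 scale. IFNB1, the type I interferon, had 36, 11 and 50 counts with 4 Gy and 3, 0 and 1 under GSK-J1 alone (log2 fold change 4.65, SE 0.59, adjusted p = 4.63e-07). The irradiated library of pair 2 was the lowest of its group in all 4 interferons. CXCL10, a chemokine for T cells, had 14, 6.65 and 13.8 CPM with 4 Gy, against 0.783, 0.966 and 0.537 CPM under GSK-J1 alone (log2 fold change 3.87, SE 0.24, adjusted p = 2.62e-13), and CXCL11 followed at 3.63. CCL5, another T-cell chemokine, had 228, 71 and 220.2 CPM with 4 Gy, against 27.8, 34.5 and 39.7 CPM under GSK-J1 alone (log2 fold change 2.20, SE 0.20, adjusted p = 1.14e-09). The DNA sensor cGAS (MB21D1) rose modestly, at 33.9, 37.6 and 42.1 CPM with 4 Gy, against 26.9, 22.3 and 24.4 CPM under GSK-J1 alone (log2 fold change 0.63, SE 0.12, adjusted p = 0.000378). STING (TMEM173) had 78.3, 62.8 and 85 CPM with 4 Gy, against 104, 91.8 and 85.4 CPM under GSK-J1 alone, with a log2 fold change of -0.32 that missed the threshold (adjusted p = 0.061). A part of either in the rise of the interferons was not tested. CD274, the checkpoint ligand PD-L1, had 13.7, 9.43 and 11.6 CPM with 4 Gy, against 6.08, 5.92 and 5.38 CPM under GSK-J1 alone (log2 fold change 0.98, SE 0.15, adjusted p = 1.47e-05).

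Genes of MHC class I, which present peptides to CD8 T cells, rose in 8 of 14 tested, against 10.0% of all genes, none fell, and the median log2 fold change was 0.54 (7 rose without the block). NLRC5, their transactivator, had 54.4, 43.8 and 77.1 CPM with 4 Gy, against 23.3, 28.4 and 27.5 CPM under GSK-J1 alone (log2 fold change 1.12, SE 0.13, adjusted p = 1.93e-07). TAP1, the peptide transporter, had 351, 251 and 355 CPM with 4 Gy, against 187, 139 and 128 CPM under GSK-J1 alone (log2 fold change 1.08, SE 0.13, adjusted p = 1.86e-07). HLA-B had 891, 789 and 778 CPM with 4 Gy, against 501, 446 and 284 CPM under GSK-J1 alone (log2 fold change 1.03, SE 0.13, adjusted p = 7.91e-07), and HLA-F, HLA-C and B2M rose by 1.06, 0.68 and 0.55 on the log2 scale. HLA genes are similar in sequence, so counts of single members are uncertain.

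NF-κB targets and inflammatory cytokines showed the largest median of the lists, 2.33 on the log2 scale, with 25 of 27 higher, against 10.0% of all genes, and 0 lower. The median was 2.19 with CXCL6, which had no count under GSK-J1 alone, set at its bound, and 16 rose without the block. The NF-κB subunit NFKB1 and the chemokine CXCL6 were the 2 genes not called (adjusted p = 0.0521 and 0.0697). IL1A, the epithelial alarmin that triggers NF-κB in neighbouring cells, had 223, 47 and 33.6 CPM under GSK-J1 with 4 Gy, against 18.2, 9.11 and 4.61 CPM under GSK-J1 alone (log2 fold change 2.96, SE 0.16, adjusted p = 1.5e-14). IL8, the neutrophil chemokine now named CXCL8 (chromosome 4, 74606223 to 74609433), had 575, 214 and 78.2 CPM with 4 Gy, against 48.7, 43.2 and 12.2 CPM under GSK-J1 alone (log2 fold change 2.85, SE 0.16, adjusted p = 3.88e-14). CCL20, which attracts Th17 and dendritic cells (chromosome 2, 228678558 to 228682272), had 97.9, 17.9 and 7.95 CPM with 4 Gy, against 4.74, 2.55 and 0.842 CPM under GSK-J1 alone (log2 fold change 3.53, SE 0.20, adjusted p = 3.39e-14). The groups were apart in all 3, and pair 1 was the highest in both groups and pair 3 the lowest.

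Low-abundance cytokines rose too. IL6, which signals through STAT3 (chromosome 7, 22765503 to 22771621), had 4.82, 3.2 and 3.03 CPM with 4 Gy, against 0.073, 0.056 and 0.159 CPM under GSK-J1 alone (log2 fold change 5.24, SE 0.30, adjusted p = 6.07e-14). CSF2, which encodes GM-CSF, had 11.5, 0.722 and 0.654 CPM with 4 Gy, against 0.115, 0 and 0.0488 CPM under GSK-J1 alone (log2 fold change 6.11, SE 0.40, adjusted p = 8.92e-13). CSF3, the granulocyte factor, had 4.64, 0.0834 and 0.12 CPM with 4 Gy, against 0.0522, 0 and 0 CPM under GSK-J1 alone (log2 fold change 6.41, SE 0.51, adjusted p = 5.8e-11), and lost its call without the block (adjusted p = 0.0777). Both CSF genes stood at over 4 CPM in the irradiated library of pair 1 and at under 1 CPM in the other 2. Regulators of the pathway, such as the feedback inhibitor TNFAIP3, rose as well. TNFAIP3 (A20) had 201, 70.3 and 83.5 CPM with 4 Gy, against 26.4, 19.8 and 13.9 CPM under GSK-J1 alone (log2 fold change 2.45, SE 0.15, adjusted p = 1.7e-13), and BIRC3, an E3 ligase of the TNF receptor complex (chromosome 11, 102188215 to 102210134), had 50.9, 26.9 and 15.8 CPM with 4 Gy, against 11.1, 5.84 and 3.55 CPM under GSK-J1 alone (log2 fold change 2.19, SE 0.13, adjusted p = 1.7e-13). IL36G, a keratinocyte member of the IL-1 family, had 28.1, 6.6 and 6.22 CPM with 4 Gy, against 0.845, 0.868 and 0.44 CPM under GSK-J1 alone (log2 fold change 3.99, SE 0.25, adjusted p = 4.64e-13).

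The largest rises, among genes with a mean of at least 10 counts and the same direction in all pairs, included further cytokines. TNFAIP6, an inflammation-induced hyaluronan-binding protein, had 186, 20 and 15 counts with 4 Gy and 0, 0 and 1 under GSK-J1 alone, a ratio of 243-fold (95% interval 43.2 to 9651), where the interval covers counting error only. TNF itself had 150, 10 and 15 counts against 1, 0 and 0, a ratio of 193-fold (95% interval 34.1 to 7651), and IL19, an IL-10 family cytokine, had 166, 6 and 7 against 1, 0 and 0, a ratio of 197-fold (95% interval 34.9 to 7825). The irradiated library of pair 1 held most of these counts. CCL3, a macrophage chemokine, had 44, 5 and 18 counts against none, at least 24.6-fold higher, and LCE3D, a cornified envelope gene, had 60, 5 and 4 against none, at least 25.3-fold higher, both against a floor of 3 counts over the group. LCE3D lost its call without pair 1 (adjusted p = 0.113), as did LTB, a TNF family ligand, with 112, 8 and 3 counts against 2, 1 and 0 (adjusted p = 0.193 without pair 1). Without the block LCE3D, LTB and IL19 missed the threshold (adjusted p = 0.0733, 0.074 and 0.0523). Beside CSF2, CSF3 and IL6 above, the other genes of this rank were IL24, HIF1A-AS2, an antisense transcript of HIF1A (5.09), the defensin DEFB4A, the A20-binding TNIP3, the channel subunit LRRC55 and the hair keratin-associated KRTAP3-1. In DEFB4A, TNIP3, LRRC55 and KRTAP3-1 the GSK-J1 group held 3 counts or fewer, and the ratios were 88.1-fold (95% interval 15.4 to 3521), 51.4-fold (95% interval 17.2 to 252), 62.4-fold (95% interval 21 to 305) and 37.4-fold (95% interval 12.4 to 184).

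**Figure D2:**
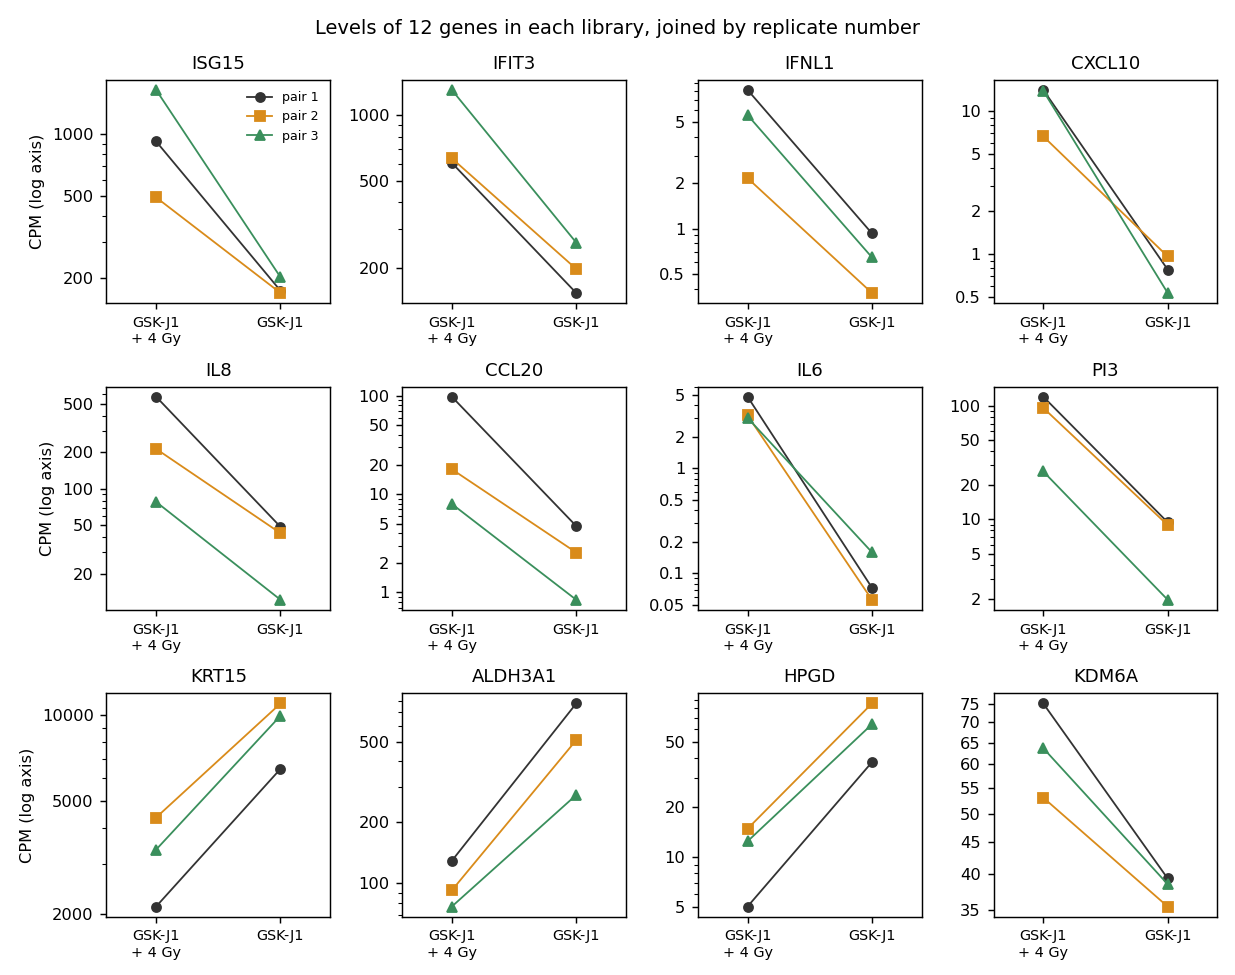
CPM of 12 genes (log axes, one range per panel) in the 3 libraries of GSK-J1 with 4 Gy, at the left of each panel, and the 3 of GSK-J1 alone, at the right, with lines joining libraries of the same replicate number. All lines of the interferon, cytokine, PI3 and KDM6A panels fall to the right and all lines of KRT15, ALDH3A1 and HPGD rise to the right, and the closest groups in IL8 are pair 3 with 4 Gy, at 78.2 CPM, and pair 1 under GSK-J1 alone, at 48.7 CPM.

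The genes with the smallest p included acute-phase proteins, complement and tissue factor. PI3, which encodes the protease inhibitor elafin (chromosome 20, 43803517 to 43805185), had 121, 96.8 and 26.5 CPM under GSK-J1 with 4 Gy, against 9.43, 8.92 and 1.95 CPM under GSK-J1 alone (log2 fold change 3.62, SE 0.13, adjusted p = 1.59e-18). SAA1, the serum amyloid of the acute phase, had 291, 95.8 and 47.1 CPM with 4 Gy, against 26.4, 10.6 and 5.29 CPM under GSK-J1 alone (log2 fold change 3.27, SE 0.13, adjusted p = 3.96e-18). Its near-identical neighbour SAA2, with which reads may be shared, rose by 3.70 and missed the threshold without the block (adjusted p = 0.062). C3, the central complement component, had 351, 319 and 152 CPM with 4 Gy, against 58.6, 45.7 and 27.2 CPM under GSK-J1 alone (log2 fold change 2.62, SE 0.12, adjusted p = 6.72e-16). No irradiated library overlapped the others in these genes, although pair 3 ran lowest in each group.

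F3, tissue factor, which starts blood clotting (chromosome 1, 94994781 to 95007356), had 781, 599.6 and 789.5 CPM with 4 Gy, against 172, 115 and 147 CPM under GSK-J1 alone (log2 fold change 2.33, SE 0.13, adjusted p = 1.78e-14), with more even levels within each group than the genes above. IL7R, the receptor chain for IL-7 and TSLP (chromosome 5, 35852797 to 35879705), had 84.2, 42.5 and 51.4 CPM with 4 Gy, against 12.4, 5.42 and 6.06 CPM under GSK-J1 alone (log2 fold change 2.94, SE 0.13, adjusted p = 1.08e-16). In both genes the groups lay far apart. RRAD, a small GTPase of the RGK family, had 22.9, 3.86 and 9.29 CPM with 4 Gy, against 1.59, 0.35 and 0.427 CPM under GSK-J1 alone (log2 fold change 3.94, SE 0.20, adjusted p = 4.28e-15). IL24, a cytokine of the IL-10 family, had 8.57, 0.82 and 1.86 CPM with 4 Gy, against 0.157, 0.028 and 0.0122 CPM under GSK-J1 alone (log2 fold change 5.82, SE 0.33, adjusted p = 3.54e-14).

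**Figure D3:**
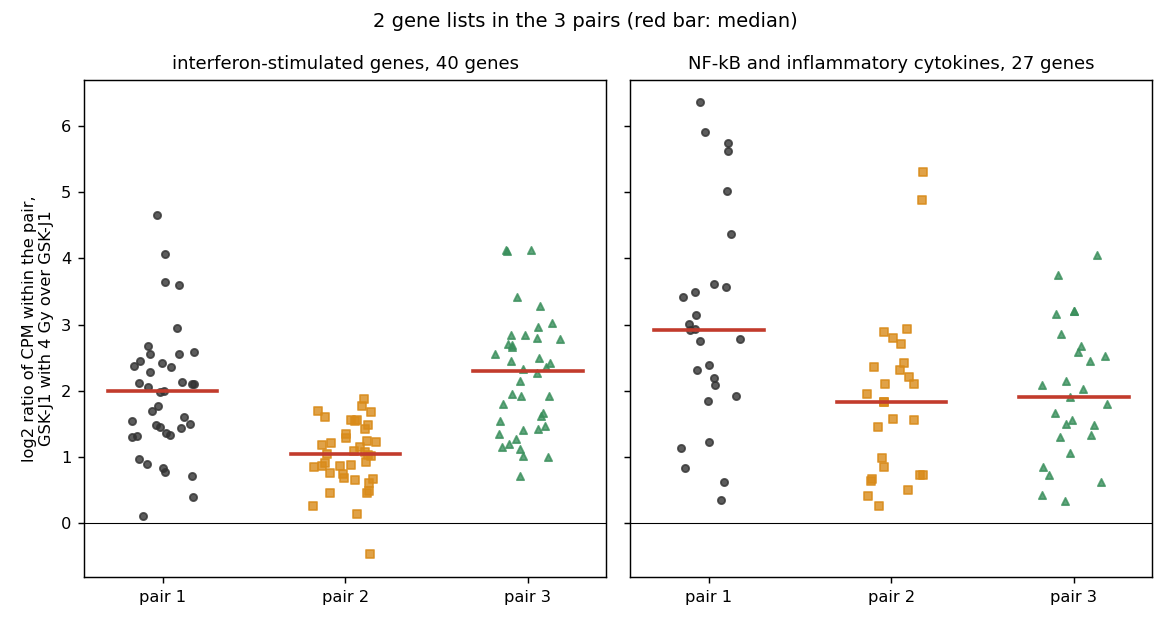
Log2 ratios of CPM within each pair, GSK-J1 with 4 Gy over GSK-J1 alone, for the 40 interferon-stimulated genes at the left and the 27 NF-κB and cytokine genes at the right, with a red bar at the median of each pair. The interferon medians are 1.99, 1.04 and 2.29 in pairs 1, 2 and 3, and the cytokine medians are 2.92, 1.83 and 1.90.

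The programmes were not strongest in the same pair. For the interferon-stimulated genes the median log2 ratio was 1.99 in pair 1, 1.04 in pair 2 and 2.29 in pair 3. For NF-κB and cytokines it was 2.92, 1.83 and 1.90. Pair 3 thus gave the highest interferon median and pair 1 the highest cytokine median, and whether the pairs differ was not tested.

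Of the AP-1 and early growth response factors, 16 of 23 rose, against 10.0% of all genes tested, none fell, and the median was 1.07 (8 rose without the block, and 13 rose and 3 fell without pair 3). FOSL1, an AP-1 subunit, had 140.5, 62.7 and 131 CPM with 4 Gy, against 29, 16 and 20.5 CPM under GSK-J1 alone (log2 fold change 2.31, SE 0.13, adjusted p = 3.54e-14). KLF4, a factor of epithelial differentiation, had 173, 91.2 and 179.6 CPM with 4 Gy, against 55.4, 38.8 and 44 CPM under GSK-J1 alone (log2 fold change 1.64, SE 0.13, adjusted p = 5.95e-11), and ATF3, a stress-induced repressor, had 154, 43.2 and 90.2 CPM with 4 Gy, against 32.9, 22.6 and 20.3 CPM under GSK-J1 alone (log2 fold change 1.78, SE 0.16, adjusted p = 8.77e-10). The phosphatase DUSP5, which switches off ERK in the nucleus, had 146, 57.7 and 78.6 CPM with 4 Gy, against 42.7, 36.3 and 31.8 CPM under GSK-J1 alone (log2 fold change 1.25, SE 0.14, adjusted p = 7.36e-08). Ligands of EGFR and its relatives rose with them: 8 of 14 genes of the family were higher, against 10.0% of all genes, and none lower, and 5 were higher without the block. HBEGF had 50.1, 24.9 and 28.5 CPM with 4 Gy, against 12.9, 12.3 and 6.4 CPM under GSK-J1 alone (log2 fold change 1.71, SE 0.16, adjusted p = 1.01e-09), EREG had 12, 5.45 and 5.3 CPM with 4 Gy, against 2.68, 1.99 and 1.18 CPM under GSK-J1 alone (log2 fold change 1.93, SE 0.19, adjusted p = 2.39e-09), and TGFA and NRG1 rose by 0.90 and 0.81 on the log2 scale. AREG rose by 1.58 with the block and missed the threshold without it (adjusted p = 0.0725).

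Squamous differentiation genes, which build the cornified envelope and its keratins, mostly rose. Of 39 tested, 25 rose and 3 fell, against 10.0% and 8.37% of all genes, with a median of 1.12 (11 and 1 without the block). The small proline-rich proteins, which cross-link into the envelope, rose but stayed at low levels: SPRR1A had 11.8, 2.78 and 8.65 CPM with 4 Gy, against 0.803, 0.798 and 0.391 CPM under GSK-J1 alone (log2 fold change 3.40, SE 0.29, adjusted p = 2.79e-10) and SPRR3 had 3.23, 2.21 and 3.75 CPM with 4 Gy, against 0.532, 0.406 and 0.562 CPM under GSK-J1 alone (log2 fold change 2.60, SE 0.22, adjusted p = 2.05e-10). SPRR2A, SPRR2D and SPRR2E, similar copies in one cluster, rose by 3.34, 3.88 and 3.95. S100A7, psoriasin, had 6.36, 9.74 and 3.41 CPM with 4 Gy, against 0.438, 0.728 and 0.537 CPM under GSK-J1 alone (log2 fold change 3.44, SE 0.23, adjusted p = 7.93e-13), and S100A9, a subunit of calprotectin, had 572, 392 and 186 CPM with 4 Gy, against 124, 165 and 68.6 CPM under GSK-J1 alone (log2 fold change 1.63, SE 0.14, adjusted p = 4.36e-10). The 3 that fell were CNFN, cornifelin, KRT4 and KRT13. KRT13, a keratin of the suprabasal layers of the oral mucosa, fell to 1337, 1960.2 and 2397 CPM with 4 Gy, against 4394, 6522 and 4994 CPM under GSK-J1 alone (log2 fold change -1.50, SE 0.15, adjusted p = 2.56e-09). Its partner KRT4 had a log2 fold change of -1.15 and lost its call without the block (adjusted p = 0.459). These 3 genes were named after their values were seen.

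Among 16 factors and keratins of the squamous lineage 3 rose and 4 fell (1 and 1 without the block), against 10.0% and 8.37% of all genes, with a median of -0.08 (1 and 4 without pair 1, 5 and 3 without pair 2, 1 and 3 without pair 3). KRT15, a keratin of basal and stem cells (chromosome 17, 39669995 to 39678781), was among the most abundant genes that changed, with 2126, 4358 and 3365 CPM with 4 Gy, against 6455, 10938 and 9909 CPM under GSK-J1 alone (log2 fold change -1.50, SE 0.14, adjusted p = 8.39e-10). SOX2, a lineage oncogene of squamous cancers, had 17.7, 43.3 and 33.3 CPM with 4 Gy, against 54.6, 77.8 and 68.5 CPM under GSK-J1 alone (log2 fold change -1.17, SE 0.13, adjusted p = 4.59e-08, and 0.0608 without the block). OVOL1, a repressor that promotes differentiation, had 13.5, 5.29 and 14.3 CPM with 4 Gy, against 4.34, 3.56 and 4.46 CPM under GSK-J1 alone (log2 fold change 1.32, SE 0.18, adjusted p = 2.13e-06). TP63, the master factor of squamous epithelium, and KRT5, the basal keratin, did not pass the test, at log2 fold changes of -0.21 and -0.23.

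Matrix, adhesion and TGF-β target genes rose in 24 of 40 cases and fell in 4, against 10.0% and 8.37% of all genes, with a median of 0.69 (9 and 1 without the block). PLAUR, the urokinase receptor, had 118, 34.4 and 95.5 CPM with 4 Gy, against 17.1, 10.9 and 16.1 CPM under GSK-J1 alone (log2 fold change 2.35, SE 0.15, adjusted p = 5.74e-13). FN1, fibronectin, had 22.3, 12.7 and 14.8 CPM with 4 Gy, against 3.94, 2.86 and 2.87 CPM under GSK-J1 alone (log2 fold change 2.34, SE 0.15, adjusted p = 7.93e-13), and INHBA, the subunit of activin A, had 107, 13.4 and 12 CPM with 4 Gy, against 6.01, 2.94 and 1.67 CPM under GSK-J1 alone (log2 fold change 3.11, SE 0.22, adjusted p = 2.5e-12). The irradiated library of pair 1 stood far above the other 2 in INHBA. THBS1, thrombospondin, was even, at 1493, 1136 and 1419 CPM with 4 Gy, against 544, 453 and 469.7 CPM under GSK-J1 alone (log2 fold change 1.46, SE 0.13, adjusted p = 3.48e-10). CYR61, a matrix-associated signalling protein, and ITGA5, a subunit of the fibronectin receptor, rose by 1.60 and 1.25. MMP10, stromelysin 2, fell to 8.11, 13.7 and 18.2 CPM with 4 Gy, against 24.3, 179 and 87.3 CPM under GSK-J1 alone (log2 fold change -2.52, SE 0.21, adjusted p = 1.67e-10).

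The senescence secretome, a list that overlaps the cytokine and matrix lists, had 21 of 28 members higher and 3 lower, against 10.0% and 8.37% of all genes, with a median of 1.74 (14 and 1 without the block). GDF15, a stress cytokine (chromosome 19, 18485541 to 18499986), had 337, 107 and 173 CPM with 4 Gy, against 59.1, 30.6 and 20.3 CPM under GSK-J1 alone (log2 fold change 2.47, SE 0.16, adjusted p = 4.54e-13). IGFBP3, which binds insulin-like growth factors, had 214, 292 and 349 CPM with 4 Gy, against 59.6, 82 and 111 CPM under GSK-J1 alone (log2 fold change 1.78, SE 0.12, adjusted p = 1.22e-12), and ICAM1, the leukocyte adhesion molecule, had 116, 22.2 and 22 CPM with 4 Gy, against 13.1, 6.22 and 5.16 CPM under GSK-J1 alone (log2 fold change 2.38, SE 0.17, adjusted p = 4.1e-12). The ICAM1 level of the irradiated library of pair 1 was over 5 times that of the other 2.

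**Figure D4:**
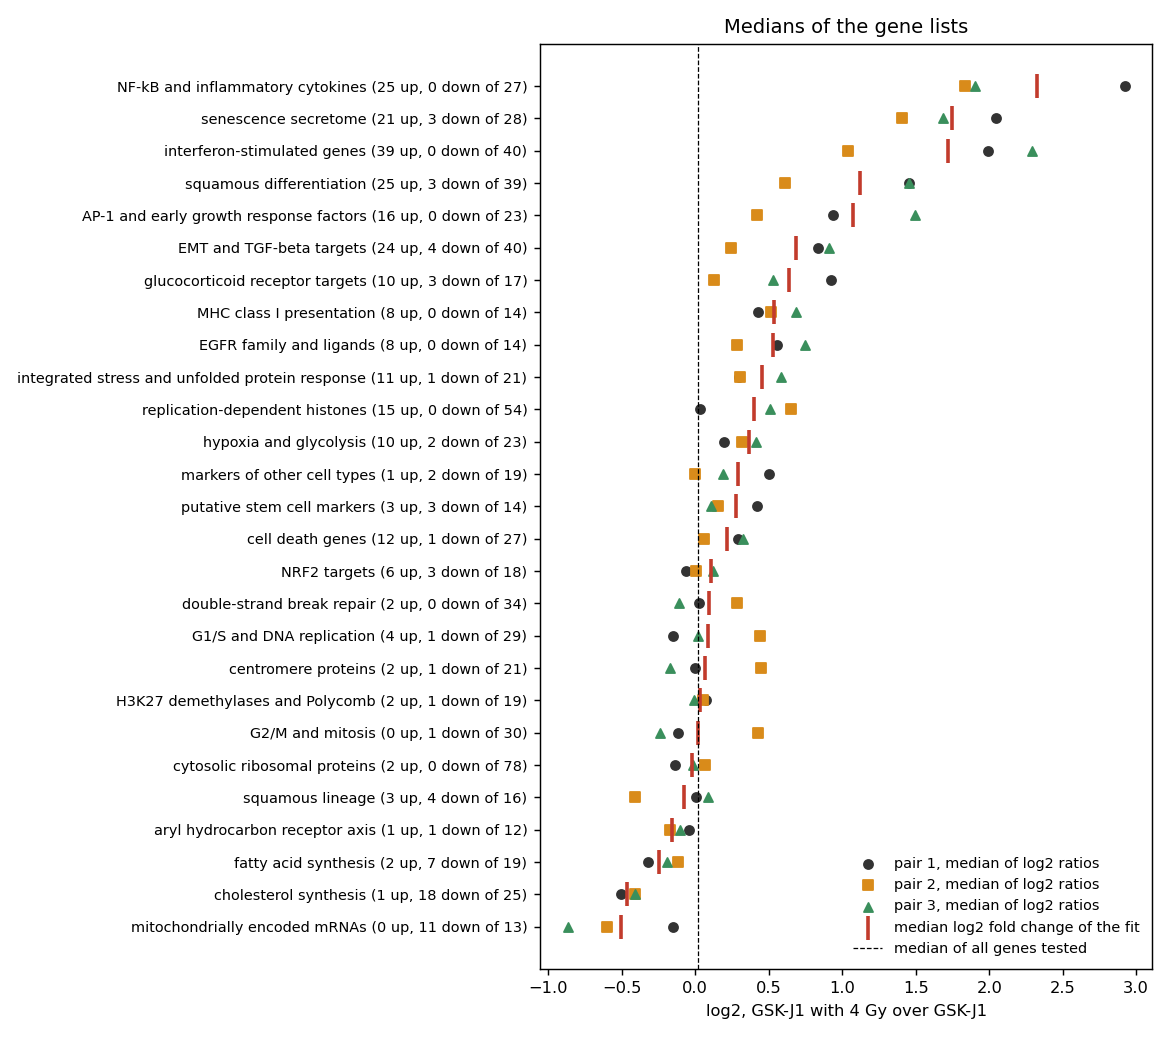
Median log2 ratio of gene lists in pairs 1, 2 and 3 (symbols) and median log2 fold change of the fit (red bar), GSK-J1 with 4 Gy over GSK-J1 alone, beside the number of members called up and down. The dashed line is the median of all genes tested, 0.02, and the lists run between the mitochondrially encoded mRNAs at -0.51 and NF-κB and inflammatory cytokines at 2.33.

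The genes that fell with the smallest p included enzymes and regulatory factors. HPGD, which degrades prostaglandin E2 (chromosome 4, 175411328 to 175444305), had 5.02, 14.9 and 12.5 CPM with 4 Gy, against 37.6, 85.1 and 63.8 CPM under GSK-J1 alone (log2 fold change -2.59, SE 0.13, adjusted p = 3.93e-15). ALDH3A1, an aldehyde dehydrogenase of epithelia and a target of the aryl hydrocarbon receptor (chromosome 17, 19641297 to 19652256), had 129, 92.2 and 76.7 CPM with 4 Gy, against 774, 510.1 and 273 CPM under GSK-J1 alone (log2 fold change -2.30, SE 0.14, adjusted p = 1.7e-13). POU2AF1, a coactivator of OCT factors, had 1.01, 1.46 and 1.1 CPM with 4 Gy, against 6.47, 11 and 7.89 CPM under GSK-J1 alone (log2 fold change -2.82, SE 0.18, adjusted p = 5.99e-13), and COLCA1, which lies next to it on chromosome 11, had 5.21, 6.9 and 5.29 CPM with 4 Gy, against 29.6, 37.9 and 32 CPM under GSK-J1 alone (log2 fold change -2.52, SE 0.13, adjusted p = 1.08e-14). In each of the 4 all irradiated libraries were below all others. RAB26, a GTPase of secretory granules, had 26.2, 28.7 and 20.2 CPM with 4 Gy, against 89.4, 86.5 and 77.7 CPM under GSK-J1 alone (log2 fold change -1.77, SE 0.12, adjusted p = 1.14e-12). CEL, a bile salt lipase, METTL7A and SESN3, a sestrin that restrains mTORC1, fell by 3.53, 4.15 and 3.03-fold. TP73, a transcription factor, named after its value was seen, had 20, 23 and 21.9 CPM with 4 Gy, against 41.5, 56.4 and 38.9 CPM under GSK-J1 alone (log2 fold change -1.06, SE 0.12, adjusted p = 1.12e-07).

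The largest falls were in scarce transcripts. ANGPTL7, an angiopoietin-like protein, had no count in any irradiated library, against 13, 94 and 9 counts under GSK-J1 alone, at least 35.1-fold lower against a floor of 3 counts over the group (adjusted p = 0.0575 without the block). DAPL1, a death-associated protein-like gene of epithelia, had 0.164, 0.222 and 0.334 CPM with 4 Gy, against 1.12, 7.39 and 3 CPM under GSK-J1 alone (log2 fold change -3.74, SE 0.30, adjusted p = 9.07e-11). CLDN8, a tight junction claudin, had 0.164, 0.264 and 0.0534 CPM with 4 Gy, against 1.38, 1.78 and 0.879 CPM under GSK-J1 alone (log2 fold change -3.12, SE 0.30, adjusted p = 3.17e-09), and ADH1C, an alcohol dehydrogenase that metabolizes ethanol and retinol, had 0.0377, 0.431 and 0.668 CPM with 4 Gy, against 0.553, 3.92 and 4.54 CPM under GSK-J1 alone (log2 fold change -3.06, SE 0.25, adjusted p = 1.2e-10, and 0.0872 without the block). FMO6P, CDH22 and NAALADL2 fell by 9.72, 7.16 and 6.59-fold. The rest of the 15 were 7 transcripts with clone-based names at under 1 CPM and POU2AF1.

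Most cholesterol synthesis genes fell by small steps. Of 25 cholesterol synthesis genes 18 fell, where 8.37% of all genes tested did, and 1 rose. The median was -0.47, and it was -0.50, -0.41 and -0.41 within the pairs. Without the block 4 fell, where 312 of all 24437 genes did, and 12 fell without pair 3, where 1154 of all genes did. FDFT1, squalene synthase, and INSIG1, the sterol sensor, fell by 1.54 and 1.54-fold. Without the block FDFT1 was still called and INSIG1 missed the threshold (adjusted p = 0.0305 and 0.0665). Of 19 fatty acid synthesis genes 2 rose and 7 fell, where 10.0% and 8.37% of all genes did, and 0 rose and 2 fell without the block. SCD, the stearoyl-CoA desaturase, had 436, 923 and 664 CPM with 4 Gy, against 1159, 1663 and 1144 CPM under GSK-J1 alone (log2 fold change -1.01, SE 0.14, adjusted p = 1.21e-06, and 0.067 without the block), whereas the desaturase-like FADS3 had 187, 71.3 and 81.2 CPM with 4 Gy, against 67.3, 45.4 and 40.1 CPM under GSK-J1 alone (log2 fold change 1.05, SE 0.13, adjusted p = 3.34e-07, and 0.0963 without the block).

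The mRNAs encoded in mitochondrial DNA, which make subunits of the respiratory chain, fell in 11 of 13 cases, against 8.37% of all genes, with none higher and a median of -0.51. MT-CYB had 3246, 3317 and 3154 CPM with 4 Gy, against 4110.1, 6130.0 and 6149 CPM under GSK-J1 alone (log2 fold change -0.73, SE 0.14, adjusted p = 0.000269) and MT-ATP8 had 748, 586 and 431 CPM with 4 Gy, against 965, 1029 and 928 CPM under GSK-J1 alone (log2 fold change -0.76, SE 0.14, adjusted p = 9.93e-05). The within-pair medians were -0.15, -0.60 and -0.87, the smallest in size in pair 1. Without the block 1 of them fell, 7 without pair 2 and 3 without pair 3. Of the cytosolic ribosomal protein genes 2 of 78 were higher and 0 lower, against 10.0% and 8.37% of all genes, with a median of -0.02. The whole-library share of mitochondrial counts moved with these genes as given above, and with mitochondrial genes and small structural RNAs left out of the fit 4509 genes were called.

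Further named genes were PLK2, a polo-like kinase, with 227, 191 and 172 CPM with 4 Gy, against 74.4, 75.2 and 74.8 CPM under GSK-J1 alone (log2 fold change 1.39, SE 0.12, adjusted p = 2.85e-10), and AEN, a nuclease, with 41.2, 41.3 and 62.6 CPM with 4 Gy, against 19.5, 18.1 and 25.4 CPM under GSK-J1 alone (log2 fold change 1.19, SE 0.12, adjusted p = 5.69e-09). BBC3, which encodes the death protein PUMA, had 41.8, 9.4 and 17.8 CPM with 4 Gy, against 12.2, 6.47 and 3.78 CPM under GSK-J1 alone (log2 fold change 1.53, SE 0.19, adjusted p = 4.49e-07, and 0.124 without the block). CDKN1A, the p21 cell cycle inhibitor, had 158, 88.7 and 133 CPM with 4 Gy, against 59.3, 106 and 69.2 CPM under GSK-J1 alone. It passed with the block (log2 fold change 0.71, SE 0.18, adjusted p = 0.00403) but not without it (adjusted p = 0.154) or without pair 1 (0.197), and its level in pair 2 was lower with 4 Gy. CDKN1A was named after its value was seen.

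Cell death genes rose in 12 of 27 cases and fell in 1, against 10.0% and 8.37% of all genes, with a median of 0.21 (3 and 0 without the block, 7 and 0 without pair 3). PMAIP1 (NOXA) had 72.7, 31.8 and 62.8 CPM with 4 Gy, against 16.6, 14.4 and 14.9 CPM under GSK-J1 alone (log2 fold change 1.79, SE 0.15, adjusted p = 1.23e-10) and BIK, another BH3-only killer, had 12.4, 8.29 and 13.8 CPM with 4 Gy, against 3.42, 3.58 and 4.02 CPM under GSK-J1 alone (log2 fold change 1.62, SE 0.16, adjusted p = 6.92e-09). On the survival side BCL2L1 (BCL-XL) had 228, 153 and 199 CPM with 4 Gy, against 136, 112 and 124 CPM under GSK-J1 alone (log2 fold change 0.62, SE 0.12, adjusted p = 0.000203, and 0.0574 without the block). The death receptors FAS and TNFRSF10B rose by 0.55 and 0.59 on the log2 scale. TNFRSF10B missed the threshold without the block (adjusted p = 0.0913).

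Of 30 G2/M genes 0 rose and 1 fell (0 and 0 without the block), where 10.0% and 8.37% of all genes tested did, with a median of 0.02, and none passed without the block. The gene that fell was KIF20A, a kinesin of cytokinesis, at 144, 131 and 119 CPM with 4 Gy, against 213, 147 and 194 CPM under GSK-J1 alone (log2 fold change -0.48, SE 0.12, adjusted p = 0.00522, and 0.147 without pair 3). The median log2 ratio of the list was -0.12 in pair 1, 0.43 in pair 2 and -0.24 in pair 3, and 6 of the genes fell without pair 2. Among 29 G1/S and replication genes 4 rose and 1 fell (0 and 0 without the block), against 10.0% and 8.37% of all genes, and the pairs again differed in sign, at -0.15, 0.44 and 0.02, with 1 higher and 4 lower without pair 2. The licensing factor CDT1 had 49.6, 54.3 and 87 CPM with 4 Gy, against 43, 37.8 and 57.6 CPM under GSK-J1 alone (log2 fold change 0.44, SE 0.12, adjusted p = 0.0067, and 0.182 without pair 3).

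Of 34 genes of double-strand break repair 2 rose and 0 fell (0 and 0 without the block), against 10.0% and 8.37% of all genes tested, with a median of 0.09. POLQ, the polymerase of end joining at microhomology, had 55.8, 68 and 68.4 CPM with 4 Gy, against 41.9, 39.1 and 53.5 CPM under GSK-J1 alone (log2 fold change 0.52, SE 0.12, adjusted p = 0.00162, and 0.0931 without the block), and the checkpoint kinase CHEK2 had a log2 fold change of 0.36 (adjusted p = 0.0263, 0.289 without pair 1 and 0.0933 without pair 3). Of 21 centromere proteins 2 rose (CENPL at 0.48, CENPO at 0.34) and APITD1 fell by 1.55-fold, against 10.0% and 8.37% of all genes, and none of these 3 was called without the block or without pair 3. Replication-dependent histone genes rose in 15 of 54 cases, against 10.0% of all genes, and none fell, with a median of 0.40 (2 rose without the block and 8 without pair 3). HIST1H2BJ had 2.15, 2.68 and 3.57 CPM with 4 Gy, against 0.939, 0.966 and 1.45 CPM under GSK-J1 alone (log2 fold change 1.32, SE 0.20, adjusted p = 1.18e-05) and HIST1H2AC had 4.24, 11.1 and 11.5 CPM with 4 Gy, against 1.46, 5.82 and 5.02 CPM under GSK-J1 alone (log2 fold change 1.21, SE 0.17, adjusted p = 1.8e-06, and 0.234 without the block). Histone genes are near-identical copies, so single members are uncertain.

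The targets of the inhibitor were themselves measured. KDM6A, which encodes UTX (chromosome X, 44732757 to 44971847), had 75.1, 53 and 63.7 CPM under GSK-J1 with 4 Gy, against 39.3, 35.4 and 38.5 CPM under GSK-J1 alone. The groups did not overlap and KDM6A rose 1.68-fold (log2 fold change 0.75, SE 0.12, adjusted p = 1.34e-05, and 0.023 without the block). KDM6B, which encodes JMJD3, had 147, 71.9 and 104 CPM with 4 Gy, against 96, 85.8 and 62.1 CPM under GSK-J1 alone (log2 fold change 0.37, SE 0.14, adjusted p = 0.0618), lower with 4 Gy in pair 2 and higher in the other 2, and without pair 2 it passed (adjusted p = 2.39e-06). Of 19 genes of H3K27 methylation, 2 rose and 1 fell (1 and 0 without the block), against 10.0% and 8.37% of all genes, with a median of 0.03. CBX7, a Polycomb reader, had a log2 fold change of -0.53 and missed the threshold without the block (adjusted p = 0.11).

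Putative stem cell markers went both ways, with 3 of 14 higher and 3 lower, against 10.0% and 8.37% of all genes (1 and 1 without the block, 6 and 3 without pair 2, 1 and 3 without pair 3). CD44, the hyaluronan receptor, had 825, 586 and 668 CPM with 4 Gy, against 557, 479 and 409.7 CPM under GSK-J1 alone (log2 fold change 0.52, SE 0.13, adjusted p = 0.00303, 0.112 without the block and 0.121 without pair 3). ALDH1A1, a retinal dehydrogenase, had 9.38, 27.4 and 21.7 CPM with 4 Gy, against 34.2, 62.3 and 74.4 CPM under GSK-J1 alone (log2 fold change -1.61, SE 0.13, adjusted p = 9.83e-11, and 0.0523 without the block). ALDH1A3, the other main ALDH1 isoform, had 288, 197 and 192 CPM with 4 Gy, against 179, 184 and 169 CPM under GSK-J1 alone (log2 fold change 0.32, SE 0.13, adjusted p = 0.0713, and 0.0125 without pair 2). PROM1, which encodes CD133, stood at 11, 9 and 3 counts with 4 Gy and 19, 7 and 6 under GSK-J1 alone (log2 fold change -0.30, SE 0.55, adjusted p = 0.769), a level at which no difference was detectable.

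Stress and metabolic programmes added further genes. Of 23 hypoxia and glycolysis genes 10 rose and 2 fell, against 10.0% and 8.37% of all genes (5 and 1 without the block). VEGFA, the angiogenic factor, had 597, 376 and 477 CPM with 4 Gy, against 231, 227 and 176 CPM under GSK-J1 alone (log2 fold change 1.18, SE 0.13, adjusted p = 7.44e-08) and hexokinase HK2 had 129.9, 93.6 and 128 CPM with 4 Gy, against 55.9, 40.8 and 42.8 CPM under GSK-J1 alone (log2 fold change 1.33, SE 0.12, adjusted p = 5.49e-10). The aldolase ALDOC fell by 1.73-fold. Of 21 genes of the integrated stress and unfolded protein responses 11 rose and 1 fell (7 and 0 without the block), against the same shares, with PPP1R15A (GADD34), which restores translation, at 232, 90.8 and 158 CPM with 4 Gy, against 65.4, 46.4 and 39.8 CPM under GSK-J1 alone (log2 fold change 1.60, SE 0.14, adjusted p = 6.31e-10) and DDIT3 (CHOP) at 72.8, 44 and 52.1 CPM with 4 Gy, against 30.6, 22 and 17.5 CPM under GSK-J1 alone (log2 fold change 1.27, SE 0.12, adjusted p = 3.47e-09). Among 18 NRF2 targets 6 rose and 3 fell (3 and 2 without the block), against 10.0% and 8.37% of all genes. The ferritin FTH1 had 2305, 2290.5 and 2159 CPM with 4 Gy, against 981, 1052 and 1209 CPM under GSK-J1 alone (log2 fold change 1.06, SE 0.13, adjusted p = 2.97e-07), while AKR1B10, a reductase of retinal, had 49.6, 60 and 50.1 CPM with 4 Gy, against 125, 116 and 84.3 CPM under GSK-J1 alone (log2 fold change -1.01, SE 0.12, adjusted p = 2.08e-07). Of 17 glucocorticoid receptor targets 10 rose and 3 fell (2 and 0 without the block), against 10.0% and 8.37% of all genes. Those that rose with the smallest p were BIRC3, DUSP1 and NFKBIA, each also on the NF-κB or the AP-1 list. DUSP1 and NFKBIA missed the threshold without the block (adjusted p = 0.0569 and 0.147). ANGPTL4 rose by 1.39 on the log2 scale (adjusted p = 0.0272 without the block). TSC22D3 (GILZ) fell by 1.76-fold with the block only (adjusted p = 7.37e-06, and 0.131 without it). A part of the receptor in these changes was not tested. Of 12 genes of the aryl hydrocarbon receptor axis 1 rose and 1 fell, against 10.0% and 8.37% of all genes: ALDH3A1 fell and TIPARP rose by 0.45 (adjusted p = 0.00677, 0.132 without the block).

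By annotation, protein-coding genes were 84.2% of those higher and 72.5% of those lower, against 63.1% of all tested, as a description with no test. Antisense transcripts were 3.18% of the genes that rose and 10.8% of those that fell, against 9.40% of all. The median span of protein-coding genes was 26155 bases for those higher and 37747 bases for those lower, against 30989 bases over all tested. Among the autosomes and chromosome X, the share called higher was largest on chromosome 19 (13.1% of 1503 genes) and smallest on chromosome X (7.06% of 708), and 13 of 34 mitochondrial genes were lower.

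Cal33 cells irradiated without GSK-J1 gave fold changes of the same sign in nearly all genes called under it. The 4 Gy and sham libraries share none with the 6 above, but the comparisons are not independent of each other: each library of GSK-J1 with 4 Gy was closer in its counts to the 4 Gy library of the same number (chi-square per degree of freedom 9.15, 13.9 and 35.7 for replicates 1, 2 and 3) than to the replicates of its own group (80.6 to 197.6). Between them 783 genes were called without a block, 516 higher (2.10% of all tested) and 267 lower (1.09%), and the number was 65 without sham replicate 1, 269 without sham replicate 3 and 327 without 4 Gy replicate 3. Of the 4494 genes called under GSK-J1, 4493 were tested there and 4486 had the same sign, 99.8%, as a description. Over all 23624 genes tested in both, called or not, the log2 fold changes were already correlated (r = 0.71). Called in both with one direction were 758 genes, 16.9% of those called under GSK-J1 and 96.8% of those called without it, where the test without GSK-J1 lacked the block. The median size of change in these genes was 0.74 under GSK-J1 and 0.71 without it on the log2 scale, where the genes were selected in the first of these comparisons.

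The responses of 5 named genes with and without GSK-J1 differed by less than the SE of the difference. ISG15 had 1069, 536 and 1271 CPM after 4 Gy, against 211, 204 and 196 CPM in sham cells without the inhibitor, a log2 fold change of 2.24 (SE 0.27), and the difference, with minus without GSK-J1, was 0.26 (SE 0.50). In this fit of 12 libraries without a block the difference was 0.05 (SE 1.12) for IL8, -0.09 (SE 0.62) for HPGD, 0.10 (SE 0.45) for KRT15 and 0.06 (SE 0.24) for KDM6A. With the inhibitor 39 interferon-stimulated genes rose, with a median of 1.72, and without it 34 of 40 did, with a median of 1.68. For NF-κB and cytokine genes 25 rose with it and 9 of 27 without it, with medians of 2.33 and 2.52. Over all genes tested, 10.0% were called higher with the inhibitor and 2.10% without it. The numbers called also reflect that only the first test had a block.

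No gene passed the test of the difference between the responses with and without GSK-J1, over 24351 genes in 12 libraries (edgeR, 0 called, 209 at an unadjusted p under 0.05, and 0 with DESeq2). This fit had no block and so takes no account of the closeness of single libraries across the arms given above, and the blocked alternatives, with 0 called, used the replicate numbers, while GSK-J1 libraries 1, 2 and 3 were closest in their counts to sham libraries 3, 1 and 2 (chi-square per degree of freedom 21.9, 26.0 and 13.2). A difference that missed the threshold is not shown to be absent. The 209 genes are fewer than an unadjusted threshold of 0.05 passes on average when no gene differs, so the fit without a block was conservative. The standard errors above belong to that fit and do not set the size that a fit with correct pairs could see. The 5 genes with the smallest p were C4orf19, PDGFRB and the transcripts RP1-56J10.8, RP11-269M20.3 and RP11-598D12.3, all at under 0.3 CPM in the 6 libraries and with an adjusted p that rounds to 1.

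**Figure D5:**
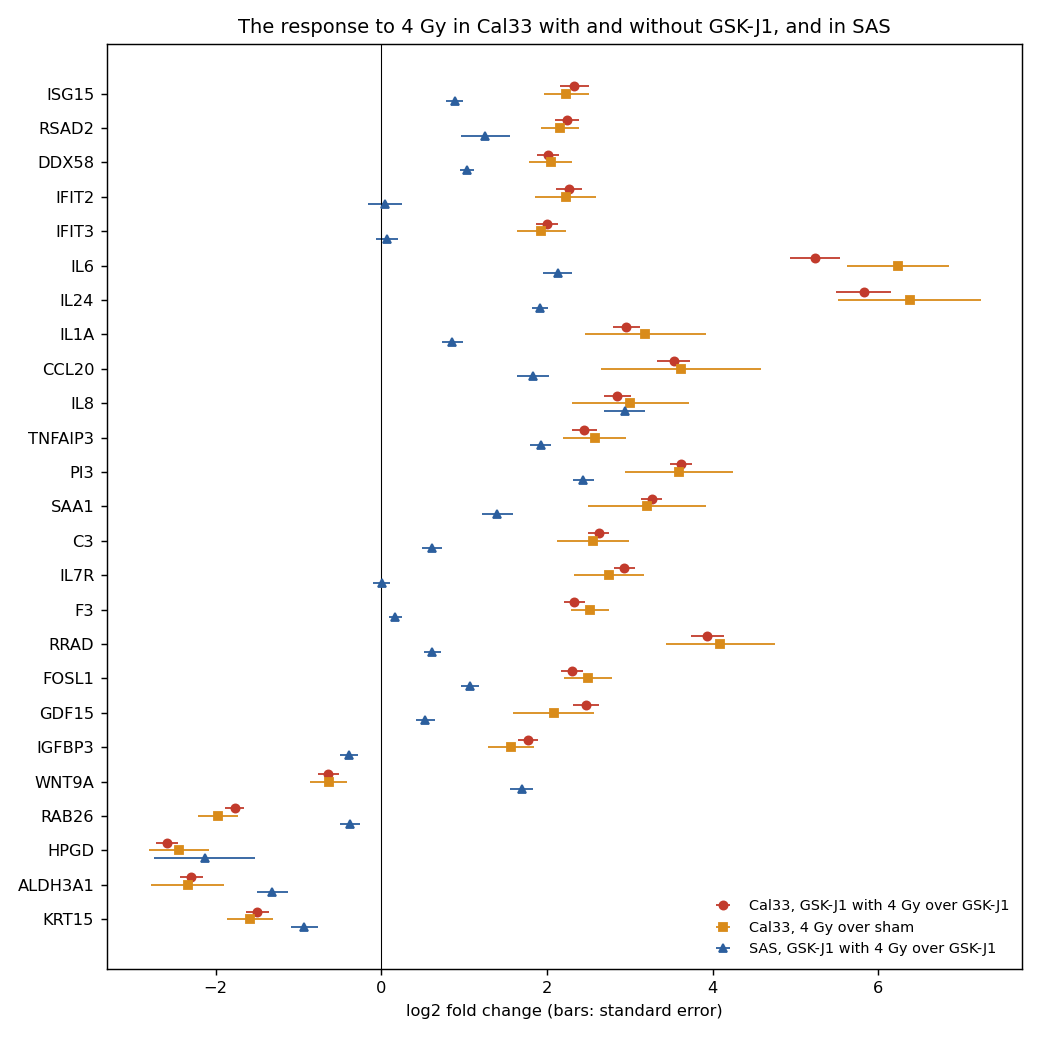
Log2 fold changes with standard errors of 25 genes in Cal33 under GSK-J1 (red circles, GSK-J1 with 4 Gy over GSK-J1 alone), in Cal33 without it (orange squares, 4 Gy over sham) and in SAS under GSK-J1 (blue triangles). The red and orange marks lie within their error bars of each other in most genes, whereas the blue marks lie nearer 0 for IL7R, F3 and the IFIT genes and on the other side of it for IGFBP3 and WNT9A.

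SAS cells irradiated under GSK-J1 shared part of the response. There 2385 genes were higher and 2402 lower, 10.1% of all tested in each direction, with the replicate block (540 in all without the block and 3010 without replicate 2). Of the 4494 genes called in Cal33, 4301 were tested in SAS and 3482 had the same sign (81.0%), and 1575 were called in both with one direction, 35.0% of the Cal33 and 32.9% of the SAS genes. Over all 21980 genes tested in both lines, called or not, the log2 fold changes had r = 0.38. The difference between the lines was called in 1101 of 24745 genes, 687 with the higher log2 fold change in Cal33 (2.78%) and 414 with the lower (1.67%). It was called in 9 genes without the block and in 667 without replicate 1 of SAS, whose 2 libraries held Cal33 transcripts at 0.685% (with 4 Gy) and 1.29% (GSK-J1 alone) of their Cal33 level.

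In the test with the block the interferon genes differed between the lines. Without the block a difference was called in 9 genes of all tested. Of these, 8 had the higher log2 fold change in Cal33 and 1 the lower. The line differences counted below thus rest on the block in most genes. Of 40 interferon-stimulated genes 33 had a higher fold change in Cal33 by the test of the difference and none a lower one (26 and none without SAS replicate 1), against 2.78% and 1.67% of all genes. In SAS 20 rose and 4 fell, against 10.1% of all genes in each direction, with a median of 0.33 (17 and 2 without replicate 1). IFIT2 had 80.8, 137 and 90.9 CPM under GSK-J1 with 4 Gy, against 149, 131 and 46.3 CPM under GSK-J1 alone in SAS, and the log2 difference between the lines was 2.19 (SE 0.35, adjusted p = 0.00213, and 1.73, adjusted p = 0.00161, without SAS replicate 1). Of 26 NF-κB and cytokine genes 14 had a higher fold change in Cal33 (11 without SAS replicate 1), against 2.78% of all genes. IL8 rose in SAS as well, with a log2 fold change of 2.94 and a difference of -0.09 (SE 0.36, and -0.67, adjusted p = 0.491, without SAS replicate 1). Mitochondrially encoded mRNAs had a lower fold change in Cal33 in 11 of 13 genes, as did cholesterol synthesis genes in 8 of 25, against 1.67% of all genes. Of these, 8 and 4 were left without SAS replicate 1. KDM6A had a log2 fold change of 0.10 in SAS (adjusted p = 0.329), and the difference between the lines was 0.62 (SE 0.13, adjusted p = 0.00952, and 0.60, adjusted p = 0.0452, without SAS replicate 1). For HPGD the difference was -0.28 (SE 0.66, adjusted p = 0.901), and without SAS replicate 1 it was -2.39 (adjusted p = 0.102), so its size in SAS rests on 1 pair.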

How the data were processed

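RNA of Cal33 and SAS cells was made into stranded total RNA libraries and sequenced in pairs of reads. The authors aligned reads to hs37d5 with STAR 2.5.3a and counted them per gene with featureCounts of Subread 1.5.1 (the submitters' processing notes also name SAMtools 1.6 and DESeq2), and deposited raw counts per gene for 57820 genes, unfiltered and not normalized. Only reads on the gene's own strand were used here, which made up 94.8 to 95.0% of the reads counted on either strand in the 6 libraries. Deposited FPKM and TPM columns were not used.

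Counts were analysed with edgeR 4.0.16 in R 4.3.3 (TMM, quasi-likelihood F test, Benjamini-Hochberg adjustment over every gene whose counts averaged 1 or more per library). SE was taken as |log2 fold change| over √F. The main fit held 6 libraries with the replicate number as a block. After subtraction of group means, libraries of equal number were correlated (r across genes of 0.42, 0.11 and 0.30 for pairs 1, 2 and 3, each over 0.1), which was taken as pairing, although replicate 2 with 4 Gy was closer to replicate 3 of GSK-J1 alone (0.15). The fit left 2 residual degrees of freedom, so the spread was largely estimated over genes. CPM use the TMM sizes of each comparison's own libraries. Within-pair ratios are differences of log2 CPM with a prior count of 2. Fits of the other comparisons had no block in Cal33 without GSK-J1 and a block within each line for the lines.

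The 28 gene lists, the members and the comparisons were chosen with earlier results of these data known, so list counts and medians are descriptions. Genes named by rule were the 2 demethylases and the stem cell markers CD44, PROM1 and ALDH1A3, then the 15 strongest rises and 15 strongest falls that were called, averaged 10 or more counts and kept one sign over the pairs, then the 10 smallest p on either side, of each list up to 8 called members by p, and for the tests of a difference the 8 called genes with the smallest p, or else 5. Other genes, exceptions in a count included, were chosen after their values were seen, and not every gene of the rule is described. Of the list of markers of other cell types, 1 rose and 2 fell among 19 tested, where 10.0% and 8.37% of all genes tested did. Biotypes were matched by Ensembl ID to GENCODE. Alternatives were other normalizations, filters and thresholds, DESeq2 1.42.0, counts without regard to strand, no block, and leaving out each replicate. The fit was tried on simulated counts built with the replicate numbers as true pairs. This cannot test whether equal numbers are pairs in the data. Some genes and 1 list are not reported here.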

Additional observations from a re-analysis of the deposited data

Results flagged for a closer look

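The response to irradiation under GSK-J1 differed between Cal33 and SAS in 1101 genes by the test of the difference, and the 8 with the smallest p among those called in Cal33 follow. Differences are log2 fold changes in Cal33 minus those in SAS. IL7R had a difference of 2.90 (SE 0.18), with 112, 121 and 81.1 CPM under GSK-J1 with 4 Gy, against 149, 113 and 64 CPM under GSK-J1 alone in SAS. F3 differed by 2.13, RRAD by 3.29, IL24 by 3.86 and the membrane-binding annexin ANXA3 by 1.45. IGFBP3 differed by 2.14, and its direction was opposite in the lines, with 421, 611 and 339 CPM under GSK-J1 with 4 Gy, against 702, 834 and 335 CPM under GSK-J1 alone in SAS (adjusted p = 0.014). The transcript RP11-215G15.5 differed by 1.74. WNT9A, a Wnt ligand, differed by -2.36, with 23.6, 18.4 and 23.2 CPM with 4 Gy, against 41.1, 33.3 and 27.8 CPM under GSK-J1 alone in Cal33 and 3.6, 3.33 and 4.94 CPM under GSK-J1 with 4 Gy, against 1.24, 1.03 and 1.38 CPM under GSK-J1 alone in SAS.

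Without SAS replicate 1, whose libraries held Cal33 transcripts, all 8 were still called, at differences of 2.69 (IL7R), 2.09 (F3), 3.20 (RRAD), 1.68 (RP11-215G15.5), 1.97 (IGFBP3), 3.83 (IL24), 1.41 (ANXA3) and -2.44 (WNT9A). Without the block F3 and WNT9A were called (edgeR adjusted p = 0.00358 and 0.00726), and the other 6 had an adjusted p of 0.0557 to 0.233.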

How the results depend on the processing

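The count of genes called for irradiation under GSK-J1 depended most on the block: 895 without it in the 6 libraries, 1245 without it in all 12 Cal33 libraries, and 2095 with DESeq2 and no block, against 4494 with the replicate block and 3367 with DESeq2 and the replicate block. It was 2754 at an adjusted p under 0.01 and 1581 at a change of at least 2-fold, and 2525 to 4970 when a replicate was left out. Other size factors, filters and counts without regard to strand kept it within 1.5 times. For 4 Gy without GSK-J1 the count was 783, 921 with the replicate block, whose numbers do not match GSK-J1 libraries to their closest sham libraries, and 2023 with DESeq2, and 65 to 696 when a library was left out. For SAS it was 4787, 540 with no replicate block and 3010 to 4724 when a replicate was left out. For the difference between the lines it was 1101, 9 with no replicate block and 667 without SAS replicate 1. No alternative called a gene for the difference with and without GSK-J1.

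Of single genes named, IFITM2, which was not called, changed sign when a replicate was left out (-0.19 without replicate 3, up to 0.38 without replicate 2). PROM1 had 3 to 19 counts in each of the 6 libraries. The causes of these changes were not tested.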

Other observations

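The libraries with and without GSK-J1 were compared one by one, by the chi-square per degree of freedom of their counts over genes, for which sampling noise alone gives a value near 1. Each library of GSK-J1 with 4 Gy was closest to the 4 Gy library of the same number, at 9.15, 13.9 and 35.7 for replicates 1, 2 and 3, against 63.7 to 190.3 for libraries of other numbers. Replicates 1, 2 and 3 of GSK-J1 alone were closest to sham replicates 3, 1 and 2, at 21.9, 26.0 and 13.2, against 79.1 to 129.3 for the others. The replicate numbers of sham and of GSK-J1 alone thus do not match, and these values do not show which numbering departs. Within the groups of the main comparison the value was 60.9 to 197.6 between replicates. A GSK-J1 library was thus nearer to one library without the inhibitor than to its own replicates, both with and without irradiation.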
